A study of Mus musculus with 2 samples.

Results

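Ventricular cardiomyocytes of the newborn mouse heart were divided by how much of Nppa, the gene of atrial natriuretic peptide, each cell held, and the cells at the 2 ends of that ranking were compared. The cells were selected on measured counts: at least 500 genes detected, haemoglobin genes (Hba-a1, Hba-a2, Hbb-bs and Hbb-bt) under 0.5% of counts, Myl2 and Myl7 together at least 10 counts and at least 0.3% of counts, Myl2 over 80% of their sum, at most 1 count of Tbx3, Bmp2 and Shox2 together, and no count of Pecam1 or Cdh5. Of 11935 cell barcodes, 2977 were ventricular by these gates, or 28.0% of 5888 barcodes in technical replicate 1 and 21.9% of 6047 in technical replicate 2. Within each technical replicate they were ranked by Nppa per 10000 counts. The top 10% gave 298 high-Nppa cells (165 and 133 in technical replicates 1 and 2), the bottom 50% gave 1489 low-Nppa cells (825 and 664), and 1190 cells lay between. The names trabecular-like for the high end and compact-like for the low end come with the selection and were checked against other genes.

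All cells came from 1 biological sample of whole hearts taken at postnatal day 0 from C57BL6 and ICR mice, digested with trypsin for 30 min at 37 °C, and captured with 10x Chromium 3' version 2 chemistry in 2 technical replicates. Both ends of the ranking share the digestion and the libraries. Cells were not assigned to a strain or an animal, so the make-up of each end by strain or animal was not measured. With 1 biological sample there is no test across animals: values are given for each technical replicate, and intervals are exact at 95% for counting error only.

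In the developing ventricle, trabecular myocardium is the inner network of muscle ridges facing the chamber, and compact myocardium is the outer wall. Nppa and its relative Nppb encode cardiac natriuretic peptides, hormones that promote salt excretion and relax vessels, and Nppa is a classic marker of trabecular and atrial muscle in the embryo. Gja5, which encodes the gap junction protein connexin 40, and the homeobox gene Irx3 mark the fast-conducting His-Purkinje network that develops from trabecular muscle, while Hey2, a Notch-related repressor, marks compact muscle.

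The values that chose the cells are given only as a description. Nppa per 10000 counts had a lowest, median and highest value of 5.62, 14.3 and 193 in high-Nppa cells of technical replicate 1, and 5.05, 10.7 and 232 in those of technical replicate 2. Of the low-Nppa cells, all 825 of technical replicate 1 had no Nppa count, as did 539 of 664 in technical replicate 2, where the others reached at most 1.25 per 10000. The cutoff fell inside a continuous range: the last cell inside the top 10% held 2 Nppa counts of 3556 and the first outside 4 of 7162 in technical replicate 1, against 5 of 9900 inside and 1 of 1996 outside in technical replicate 2. At most 2 Nppa counts put 15 and 18 of the high-Nppa cells where they are, and 10 and 4 held 50 or more. The cells between averaged 2.03 and 2.57 per 10000, against 1.5 and 2.08 in fibroblast-like cells, so values in that range are not read as graded expression of the gene. In technical replicate 1, 36 cells with no Nppa count also lay between, placed there by ties.

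Median depth was 6531 and 6500 counts in high-Nppa cells, against 5855 and 6468 in low-Nppa cells, and the sums behind the comparison held 1990814 counts of high-Nppa cells and 9656746 counts of low-Nppa cells, Nppa left out. No cell barcode was shared by the technical replicates within the high-Nppa, between or low-Nppa cells, 1 was shared over all ventricular cells, and 53 over all barcodes. Mitochondrial counts took a median of 38.6% and 36.3% in high-Nppa cells, against 40.9% and 41.4% in low-Nppa cells. Haemoglobin genes summed to 844 and 1055 CPM, counts scaled to a common total of all genes but Nppa, in high-Nppa cells, against 455 and 661 CPM in low-Nppa cells. A count of 1 of 9 cell cycle genes was found in 47.3% and 45.1% of high-Nppa cells, against 24.0% and 28.0% of low-Nppa cells. The part of depth, mitochondrial share, haemoglobin RNA and cycling in the gene results was not tested.

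The marker directions matched the names of both ends in summed counts. Gja5 had 54.8 and 41.9 CPM in high-Nppa cells, against 16.8 and 18.9 CPM in low-Nppa cells (2.76-fold over both technical replicates, 2.13 to 3.56). Of its counts in high-Nppa cells, 50 and 25 lay in 19 and 9 cells, and 12 and 11 in all other high-Nppa cells. Those 19 and 9 cells were chosen partly by Gja5 itself, as set out under other observations. Irx3 had 36.3 and 33.7 CPM in high-Nppa cells, against 22.7 and 18.9 CPM in low-Nppa cells (1.68-fold, 1.26 to 2.22). Both markers were higher in the high-Nppa cells of each technical replicate, with no overlap between the 2 groups of values. Hey2 had 38.9 and 23.3 CPM in high-Nppa cells, against 65.4 and 58.3 CPM in low-Nppa cells, a ratio of 0.518 (0.394 to 0.671). Here both high-Nppa values lay below both low-Nppa values. With 2 values for each group from 1 biological sample, these orders are a description only. Gja5, Irx3 and Hey2 each differed by at least 1.5-fold in both technical replicates, which makes such an order likely. These genes were nevertheless counted in a minority of cells: after thinning each cell to 2000 counts, 5.14% of high-Nppa and 2.70% of low-Nppa cells had a Gja5 count, and 5.14% and 11.4% a Hey2 count. In fibroblast-like cells the thinned shares were 0.802% and 1.30%, and in atrial-like cells they were 49.7% for Gja5 and 0.167% for Hey2, so Gja5 also marks the atrial-like cells. For Irx3 the thinned shares were 6.16% of high-Nppa cells, 6.15% of cells between and 3.72% of low-Nppa cells. By that measure Irx3 did not set the high-Nppa cells apart from the cells between.

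Of 4608 genes with at least 100 counts over both groups in each technical replicate, 55 rose (1.19% of those compared) and 15 fell (0.326%), where a gene is called when its ratio of CPM, high-Nppa over low-Nppa, is at least 1.5 or at most the inverse of 1.5 in both technical replicates. The 55 include Hba-a1, Hba-a2 and Hbb-bt, haemoglobin genes whose joint share the selection capped in both groups. Only 10 rose and 1 fell by 2-fold or more in both. At 1.19% and 0.326%, a short list with no called gene is near the share of all compared genes. The median log2 ratio of all compared genes was 0.05. With mitochondrial and haemoglobin counts left out of the total, the split was 36 higher and 30 lower, so the balance of directions depends on the total behind the CPM.

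**Figure D1:**
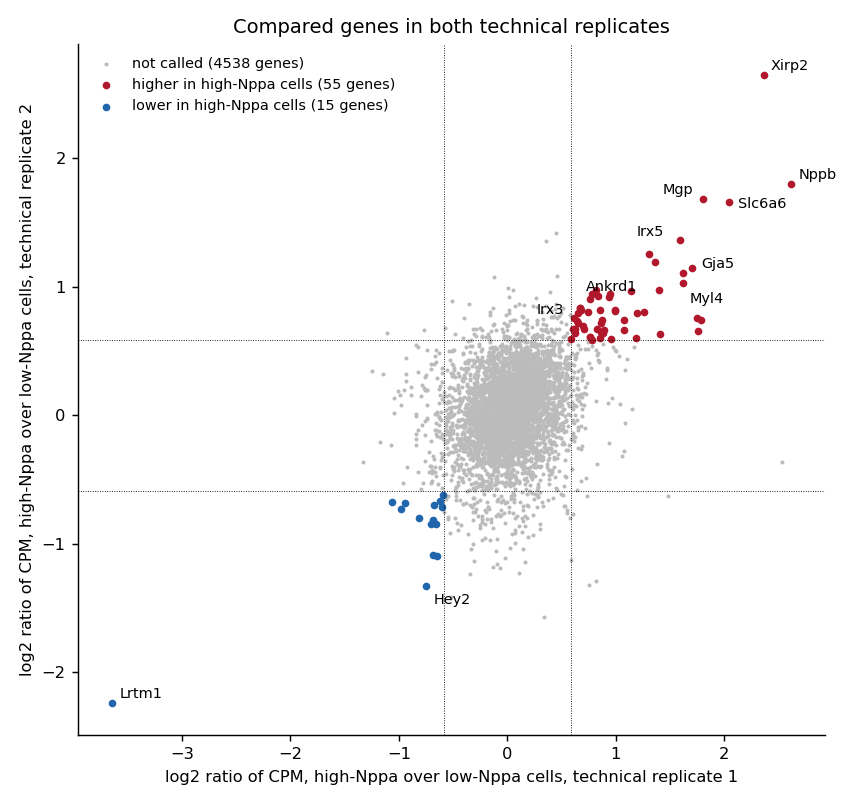
Log2 ratio of CPM, high-Nppa over low-Nppa cells, in technical replicate 1 (horizontal axis) and technical replicate 2 (vertical axis), 1 point per compared gene. Red points are the 55 genes called higher and blue points the 15 called lower; dotted lines mark a ratio of 1.5 in either direction, and Xirp2, Nppb and Lrtm1 lie farthest from the centre.

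The promoters of Nppb, Ankrd1 and Xirp2, genes of the stress or fetal program of cardiac muscle, are shown because all 3 rose, and those of Gja5 and Hey2 as the markers that moved in opposite directions. Each is the RefSeq promoter window (GRCm38.p6) of 250 bases before to 50 bases after a transcription start, 5′ to 3′ on the gene's strand. The windows are chr4:147985650-147985949 (+) for Nppb, chr19:36119795-36120094 (-) for Ankrd1, chr2:67445752-67446051 (+) for Xirp2, chr3:97032152-97032451 (+) for Gja5 and chr10:30842734-30843033 (-) for Hey2. Capitals mark matches, on either strand, to 6 searched motifs. The M-CAT motif that TEAD factors bind is CATTCC, the motif of GATA factors is AGATAA, and that of T-box factors is GGTGTGA. The motif of NKX2-5 is spelled TNAAGTG, that of AP-1 is TGANTCA, and the TATA box is TATAAA. No 2 matches in these windows overlap.
Nppb: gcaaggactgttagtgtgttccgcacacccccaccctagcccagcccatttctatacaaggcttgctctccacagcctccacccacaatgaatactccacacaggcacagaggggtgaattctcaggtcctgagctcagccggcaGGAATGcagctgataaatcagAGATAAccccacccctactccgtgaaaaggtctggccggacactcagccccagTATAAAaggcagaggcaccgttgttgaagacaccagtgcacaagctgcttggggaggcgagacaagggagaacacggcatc
Ankrd1: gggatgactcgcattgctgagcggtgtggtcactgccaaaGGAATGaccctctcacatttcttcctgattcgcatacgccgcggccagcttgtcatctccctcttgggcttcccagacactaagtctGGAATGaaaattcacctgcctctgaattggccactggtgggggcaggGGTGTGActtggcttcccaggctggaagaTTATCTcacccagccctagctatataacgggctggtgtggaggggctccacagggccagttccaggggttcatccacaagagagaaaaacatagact
Xirp2: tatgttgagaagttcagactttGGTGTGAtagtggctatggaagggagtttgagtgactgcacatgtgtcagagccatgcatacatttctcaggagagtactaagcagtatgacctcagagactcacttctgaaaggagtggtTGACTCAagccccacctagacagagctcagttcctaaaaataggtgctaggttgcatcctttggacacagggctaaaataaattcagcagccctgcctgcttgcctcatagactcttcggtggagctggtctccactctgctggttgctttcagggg
Gja5: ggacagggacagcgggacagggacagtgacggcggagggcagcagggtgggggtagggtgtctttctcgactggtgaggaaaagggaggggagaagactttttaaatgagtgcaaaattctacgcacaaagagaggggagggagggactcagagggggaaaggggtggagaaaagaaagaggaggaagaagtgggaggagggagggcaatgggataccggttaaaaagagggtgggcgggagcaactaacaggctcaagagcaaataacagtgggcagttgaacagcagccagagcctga
Hey2: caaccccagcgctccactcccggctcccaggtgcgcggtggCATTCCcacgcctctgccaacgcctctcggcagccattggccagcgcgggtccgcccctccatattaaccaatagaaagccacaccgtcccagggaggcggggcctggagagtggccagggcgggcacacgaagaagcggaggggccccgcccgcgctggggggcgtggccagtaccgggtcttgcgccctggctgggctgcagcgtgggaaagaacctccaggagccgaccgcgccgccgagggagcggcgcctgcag

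The Nppb window held an M-CAT match at -105 from the start (written GGAATG, its reverse complement), a GATA match at -84 and a TATA match at -31. The Ankrd1 window held M-CAT matches at -210 and -123, a T-box match at -76 and a GATA match at -47. Xirp2 had a T-box match at -228 and an AP-1 match at -107, Hey2 an M-CAT match at -209, and Gja5 none of the 6. M-CAT matches occur in 14.7% of all 32851 promoter windows of this length, GATA in 11.2%, T-box in 3.98%, NKX2-5 in 11.5%, AP-1 in 7.81% and TATA in 13.6%. In the 4766 windows of compared genes the shares were 12.4% for M-CAT, 5.73% for GATA, 2.90% for T-box, 8.43% for NKX2-5, 4.70% for AP-1 and 7.09% for TATA. Among 54 windows of 44 of the genes that rose, 12 held M-CAT, 3 GATA, 9 T-box, 3 NKX2-5, 4 AP-1 and 9 TATA. Among 17 windows of 12 of the genes that fell, 3 held M-CAT, 2 GATA, 1 AP-1 and none the other motifs. A match is a string of letters and not a shown binding site.

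Nppb, which encodes B-type natriuretic peptide (chr4:147985788-147987205, + strand, GRCm38), had 885 and 759 CPM in high-Nppa cells, against 144 and 218 CPM in low-Nppa cells. It rose 4.64-fold (4.34 to 4.97), and the lower high-Nppa value was above the higher low-Nppa value, an order that is likely for a called gene. An Nppb count was present in 53.3% and 50.4% of high-Nppa cells, against 23.8% and 33.1% of low-Nppa cells and 3.42% and 3.61% of fibroblast-like cells. The counts were uneven even among high-Nppa cells: 10 cells held 48.2% of them in technical replicate 1 and 67.8% in technical replicate 2. Atrial-like cells, with the same gates but Myl2 under 20% of the sum, had 211 and 207 CPM of Nppb, within the range of low-Nppa ventricular cells.

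Xirp2, which encodes an actin-binding protein of the intercalated disc and Z disc region (chr2:67446002-67526614, + strand), had the largest pooled ratio of the genes called higher. It had 80.5 and 95.3 CPM in high-Nppa cells, against 15.6 and 15.2 CPM in low-Nppa cells (5.63-fold, 4.50 to 7.06). No fibroblast-like cell held a count, and atrial-like cells had 22.2 and 16.4 CPM. Ankrd1, a titin-associated repeat protein that responds to stretch in muscle (chr19:36111961-36120099, - strand), had 1082 and 813 CPM in high-Nppa cells, against 411 and 412 CPM in low-Nppa cells. It rose 2.35-fold (2.22 to 2.48). Unlike Nppb, Ankrd1 was higher still in atrial-like cells, at 1935 and 1787 CPM.

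Over all compared genes 1.19% rose and 0.326% fell. Of 18 compared genes of the stress or fetal program, 6 rose and none fell, with a median log2 ratio of 0.35 against 0.05 for all compared genes. Beside Xirp2, Nppb and Ankrd1 they were Acta1 (2.46-fold), which encodes skeletal alpha-actin and is expressed in fetal and stressed heart, Clu (1.64-fold), a secreted chaperone called under 9 of the 22 alternatives that compared it, and Rcan1 (1.61-fold), an inhibitor of calcineurin. The Acta1 value rests on few cells, since 10 high-Nppa cells held 79.7% of its counts in technical replicate 1 and 100% in technical replicate 2, and among cells with no count of Sln, Myl4 or Bmp10 its ratio was 0.689. Rcan1 had 60.1 and 58.1 CPM in high-Nppa cells, against 38.1 and 35.3 CPM in low-Nppa cells.

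**Figure D2:**
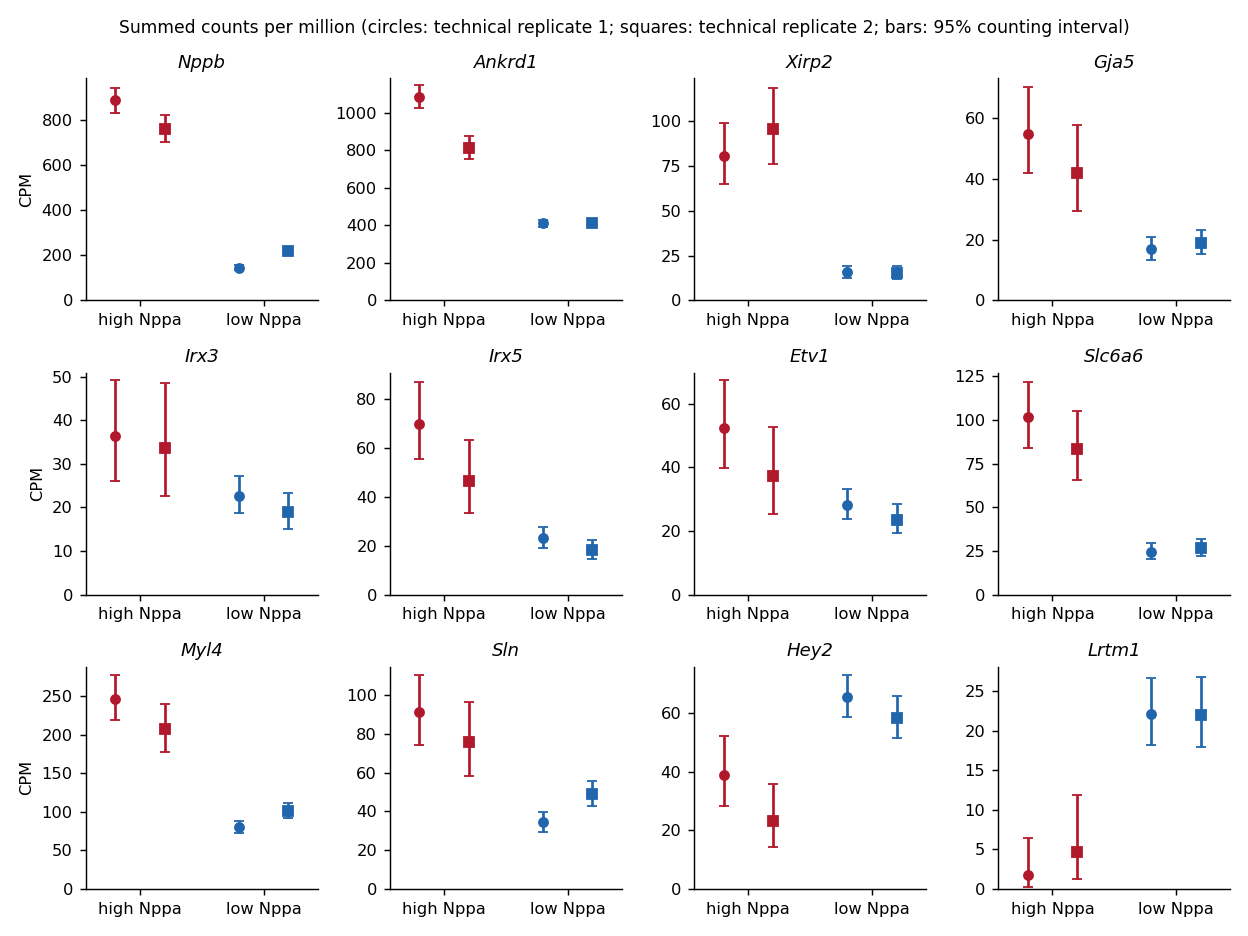
CPM of 12 genes in summed high-Nppa cells (red, left) and low-Nppa cells (blue, right), with a circle for technical replicate 1, a square for technical replicate 2 and bars for exact 95% Poisson intervals. Both high-Nppa values lie above both low-Nppa values for the first 10 genes and below them for Hey2 and Lrtm1. All 12 genes were called in both technical replicates, which makes such an order likely.

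Among trabecular and His-Purkinje-facing genes, 12 of 23 listed members were compared, and 6 rose and none fell. Their median log2 ratio was 0.76, against 0.05 for all compared genes, of which 1.19% rose and 0.326% fell. The 6 were Nppb, Irx5, Gja5, Etv1, Fhl1 and Irx3. Irx5, a homeobox gene beside Irx3 on chromosome 8, had 69.9 and 46.5 CPM in high-Nppa cells, against 23.1 and 18.1 CPM in low-Nppa cells (2.89-fold, 2.28 to 3.64). Irx3 and Irx5 were nearly absent from the comparison cells: atrial-like cells had 2.35 and 0.304 CPM of Irx3 and 0 and 0.304 CPM of Irx5, and fibroblast-like cells at most 2.07 CPM of either. Etv1, an ETS factor of fast-conducting myocardium, had 52.2 and 37.2 CPM in high-Nppa cells, against 28.0 and 23.5 CPM in low-Nppa cells (1.77-fold). Fhl1, a LIM-domain protein of the sarcomere, had 88.4 and 79.1 CPM in high-Nppa cells, against 48.6 and 50.5 CPM in low-Nppa cells (1.70-fold). Fhl1 was also plentiful in fibroblast-like cells, at 496 and 541 CPM.

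Other compared members of that list did not reach 1.5-fold in both technical replicates. Kcne1, a potassium channel subunit, had a ratio of 1.43, Cited1, a transcription co-regulator, 1.45, Smpx, a small muscle protein, 1.25, and Adamts1, a matrix protease, 1.76 pooled. Ndrg2 stood at 0.947. Among members with too few counts to compare, the guidance genes Slit2 and Sema3a were counted more often in high-Nppa cells. Slit2 had 34.5 and 20.9 CPM in high-Nppa cells, against 8.69 and 6.97 CPM in low-Nppa cells, from 39 and 18 against 44 and 32 counts. Sema3a had 20.3 and 10.5 CPM in high-Nppa cells, against 4.15 and 4.79 CPM in low-Nppa cells. The calcium channel subunit Cacna2d2 had 14 and 3 counts in high-Nppa cells, against 9 and 3 in low-Nppa cells (6.87-fold, 3.09 to 15.8). Irx1 and Irx2 had pooled ratios of 2.13 and 1.72, Hand1 2.53, Bmp10 1.87, Slit3 1.62, Tbx5 1.33, Cpne5 1.31 and Robo1 0.898, all below the count minimum.

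Of 22 conduction system genes, 6 were compared and none was called, although all 6 ratios were above 1 and their median log2 ratio was 0.27. No call among 6 genes is near the share of all compared genes, 1.19% higher and 0.326% lower. Igfbp5, which binds insulin-like growth factors, had 53.1 and 82.5 CPM in high-Nppa cells, against 38.9 and 30.9 CPM in low-Nppa cells (1.87-fold pooled). Id2, a helix-loop-helix inhibitor needed for conduction system development in the mouse, had 44.2 and 32.6 CPM in high-Nppa cells, against 29.6 and 18.9 CPM in low-Nppa cells (1.60-fold pooled). The other 4 were Nkx2-5 (1.18), Rgs6 (1.23), Cacna1g (1.16) and Gjc1 (1.15). The pacemaker channel gene Hcn4 had no count in high-Nppa cells and 7 in all low-Nppa cells, and Gjd3, Gjc3 and Vsnl1 also had none in high-Nppa cells. Below the count minimum, Cntn2, a cell adhesion gene of Purkinje cells, had 4 and 2 counts in high-Nppa cells, against 1 and 5 in low-Nppa cells (4.85-fold, 1.30 to 18.1), and Pcp4 8 and 3 against 11 and 0. Ntm (1.63), Hcn2 (1.62), Smoc2 (2.16), Kcnj8 (1.94), Id4 (2.43), Isl1 (1.62), Scn10a (1.08), Tbx18 (1.0) and Cacna1d (0.832) had at most 31 counts each in high-Nppa cells. The selection itself capped Tbx3, Bmp2 and Shox2, so cells with more of these nodal genes were kept out of both groups.

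The compact wall list moved less. Of 17 members, 7 were compared, 1 fell (Hey2) and none rose, with a median log2 ratio of -0.21. Among all compared genes 0.326% fell and 1.19% rose. Hand2, a helix-loop-helix factor, had 43.3 and 53.5 CPM in high-Nppa cells, against 70.7 and 76.8 CPM in low-Nppa cells, a pooled ratio of 0.648 that missed the call in technical replicate 2. Irx4, the ventricular Iroquois gene, had a ratio of 0.759 and Tbx20, a T-box factor, 0.868. Tead1 (1.02), Kcnip2 (1.07) and the cyclin gene Ccnd2 (1.33) did not follow Hey2. Of the other members, Prdm16 had a ratio of 0.955, Mycn 1.03 and Ccnd1 1.05, each below the count minimum, as were Cdkn1c (1.60), Fgfr1 (1.52), Fgfr2 (1.39), Kcnd2 (0.557), Fzd7 (6 counts in high-Nppa and 8 in low-Nppa cells), Wnt11 (2 and 1 counts) and Kcnd3 (0 and 2 counts).

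The gene with the lowest ratio was Lrtm1, which encodes a leucine-rich repeat membrane protein (chr14:29018208-29033645, + strand). It had 1.77 and 4.65 CPM in high-Nppa cells, against 22.1 and 22.0 CPM in low-Nppa cells, from 2 and 4 counts against 112 and 101 (ratio 0.137, 0.0496 to 0.302). A count was seen in 2.01% of high-Nppa cells, against 10.0% of low-Nppa cells. Atrial-like cells (0.522 and 2.43 CPM) and fibroblast-like cells (0.329 and 0.345 CPM) also held little. Ppip5k2, an inositol pyrophosphate kinase, had 76.9 and 86.0 CPM in high-Nppa cells, against 161 and 137 CPM in low-Nppa cells (ratio 0.540). Efnb3, an ephrin ligand, had a ratio of 0.571, Speg, a kinase of the sarcomere and calcium-release unit, 0.594, and Raph1, which acts on actin filaments, 0.60. The other 9 that fell had ratios of 0.549 to 0.650: Metap1d, Csnk1g2, Scd4, Kat6b, Gm45902, Plppr1, Gm17428, AU020206 and Atg10.

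**Figure D3:**
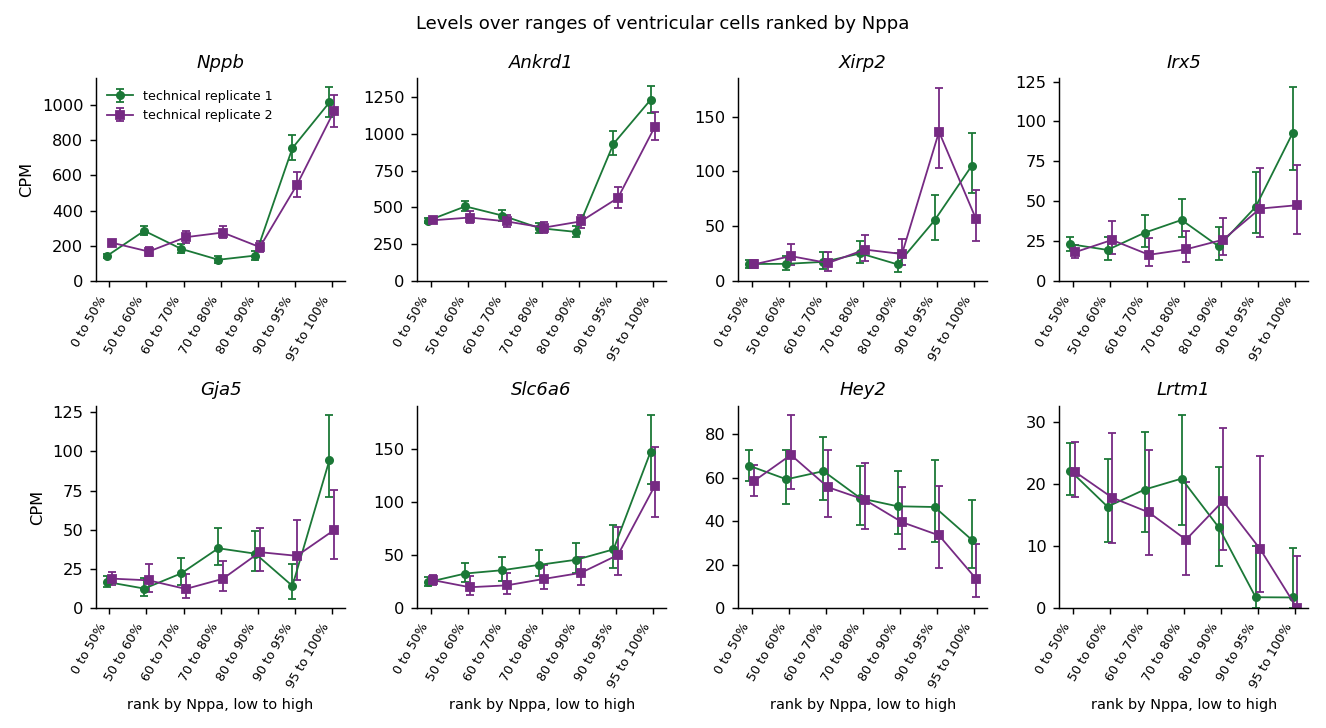
CPM of 8 genes over 7 consecutive ranges of the Nppa ranking, low to high, for technical replicates 1 (green) and 2 (purple), with exact 95% Poisson intervals. Nppb lies between 121 and 285 CPM in every range below 90% and is higher in both ranges above it, as is Ankrd1, while Hey2 is lower in the ranges above 70% than in the bottom 50%.

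Over the whole ranking, Nppb and Ankrd1 were higher mainly inside the top 10%, as was Xirp2, with 55.4 and 136 CPM from 90 to 95% and 105 and 56.6 CPM in the uppermost 5%. From 80 to 90%, Nppb had 145 and 193 CPM, and from 90 to 95% 754 and 545 CPM. Ankrd1 had 333 and 405 CPM from 80 to 90% and 931 and 564 CPM from 90 to 95%. Both were highest in the uppermost 5%, with 1014 and 962 CPM of Nppb and 1229 and 1048 CPM of Ankrd1. Gja5 was also highest in the uppermost 5%, with 94.5 and 49.8 CPM, against 14.3 and 33.5 CPM from 90 to 95%. Slc6a6, the taurine transporter, likewise had 147 and 115 CPM in the uppermost 5%, against 55.4 and 50.2 CPM from 90 to 95%. Hey2 had 46.8 and 39.5 CPM from 80 to 90% and 31.5 and 13.6 CPM in the uppermost 5%. Each range above 90% holds 66 to 83 cells per technical replicate.

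Nppa is also an atrial gene, so atrial genes were examined in the high-Nppa cells. Of 11 compared genes of the atrial cardiomyocyte list, 4 rose and none fell, with a median log2 ratio of 0.28. Among all compared genes 1.19% rose and 0.326% fell. Myl4, the atrial essential light chain, had 247 and 207 CPM in high-Nppa cells, against 80.2 and 101 CPM in low-Nppa cells (2.55-fold). Sln, which encodes sarcolipin, a regulator of the calcium pump, had 91.1 and 75.6 CPM in high-Nppa cells, against 34.4 and 48.8 CPM in low-Nppa cells (2.05-fold). Gpx3, a secreted glutathione peroxidase, rose 2.43-fold, and Clu was the fourth. These levels were far below those of atrial-like cells, which held 8912 and 9334 CPM of Myl4 and 7149 and 7272 CPM of Sln. Low-Nppa cells held less of both than fibroblast-like cells did (128 and 146 CPM of Myl4, 58.2 and 70.3 CPM of Sln), and high-Nppa cells held more.

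The excess of atrial genes in high-Nppa cells was also set against their level in atrial-like cells. Of 10 compared genes at least 10 times higher in atrial-like than low-Nppa cells, 5 rose and 8 had ratios above 1. This choice and the ratio share the low-Nppa level, which can favour ratios above 1, so the counts are a description. Myl7, which the selection used for both ventricular and atrial-like cells, is among the 10. Its ratio was 1.68 and its excess 0.55%, and it is included in these counts and in the median below. The excess in high-Nppa cells had a median of 1.32% of the atrial-like level and ranged from -3.26% for Angpt1 to 8.46% for Gja5. These percentages carry no interval, and whether atrial genes shifted by 1 common share was not tested. The atrial potassium channel gene Kcnj3 had 19.5 and 22.1 CPM in high-Nppa cells, against 19.6 and 22.4 CPM in low-Nppa cells. Kcnj5 (0.840) and Angpt1 (0.703) had ratios below 1, Lbh 1.04, Pam, an enzyme that amidates peptides, 1.32, Peg3 1.21 and Stard10 1.21. Among members below the count minimum, Mybphl (2.74), Nr2f1 (2.43), Dkk3 (2.14), Kcna5 (1.94), Bmp10 (1.87), Nr2f2 (1.70), Aldh1a2 (1.62) and Tbx5 (1.33) had ratios above 1, and Adm (0.927) and Fgf12 (0.909) below 1, while Dhrs9 had no count in high-Nppa cells. With Myl2 required above 95% of the sum and no Bmp10 count, 50 genes rose and 6 fell, and the Sln ratio was 1.45, no longer called. Sln kept its call under 10 of the 21 alternatives that compared it.

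Ventricular identity genes differed little: of 14 compared, Hey2 alone fell and the median log2 ratio was -0.05. The Myl2 share of Myl2 and Myl7 had a median of 97.8% and 97.4% in high-Nppa cells, against 100% and 98.0% in low-Nppa cells. Myl2, the ventricular regulatory light chain, which the selection used, had 8314 and 7373 CPM in high-Nppa cells, against 7545 and 7227 CPM in low-Nppa cells. Of 50 sarcomere and Z disc genes 6 rose and none fell, namely Xirp2, Ankrd1, Myl4, Acta1, Myl9 (1.56-fold) and the tropomyosin gene Tpm2 (2.44-fold, 40.7 and 30.2 CPM in high-Nppa cells, against 12.0 and 17.9 CPM in low-Nppa cells). None of 21 ion channel genes was called, and 1 of 17 calcium handling genes, Sln, rose. With 1.19% of all compared genes higher and 0.326% lower, a list of 21 without a call does not stand apart.

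Several genes outside the cardiac lists were among the 15 with the largest ratios. Slc6a6 had 102 and 83.7 CPM in high-Nppa cells, against 24.7 and 26.6 CPM in low-Nppa cells (3.67-fold, 3.02 to 4.46). Mgp, a matrix protein that restrains calcification, had 119 and 152 CPM in high-Nppa cells, against 34.2 and 47.5 CPM in low-Nppa cells (3.30-fold). Mgp counts were concentrated, with 84.4% and 84.7% of them in 10 high-Nppa cells, and Mgp is also abundant in fibroblast-like cells, at 1220 and 1233 CPM. Thinned shares of cells with an Mgp count were 9.59% in high-Nppa, 5.88% in low-Nppa and 11.7% in atrial-like cells. Neither Slc6a6 nor Mgp is thus particular to high-Nppa cells. Cdkn1a, which encodes the cell cycle inhibitor p21, had 50.4 and 38.4 CPM in high-Nppa cells, against 16.4 and 17.9 CPM in low-Nppa cells (2.65-fold). Meg3, an imprinted noncoding RNA, had 118 and 58.1 CPM in high-Nppa cells, against 34.8 and 36.8 CPM in low-Nppa cells (2.57-fold), and 2440 and 2497 CPM in fibroblast-like cells. Meg3 had ratios of 3.38 in technical replicate 1 and 1.58 in technical replicate 2. Tceal7 had 81.4 and 37.2 CPM in high-Nppa cells, against 23.5 and 22.2 CPM in low-Nppa cells (2.72-fold pooled, and 1.68 in technical replicate 2 alone). The last was Anxa2, a membrane-binding annexin (2.16-fold).

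Markers of other cells were measured beside these genes. The 9 fibroblast markers summed to 416 and 172 CPM in high-Nppa cells, against 257 and 310 CPM in low-Nppa cells, so the order differed between technical replicates. The 8 vascular endothelium markers summed to 180 and 155 CPM in high-Nppa cells, against 82.2 and 117 CPM in low-Nppa cells, with no count of Pecam1 or Cdh5 by selection. The 8 erythroid markers summed to 849 and 1061 CPM in high-Nppa cells, against 456 and 665 CPM in low-Nppa cells, while Slc4a1 had no count in high-Nppa cells. Nearly all of these sums came from the haemoglobin genes, whose joint share of counts the selection capped in every cell. Of these, Hba-a1, Hba-a2 and Hbb-bt were among the 55 genes that rose. Because the selection used them, their calls are a description only. Mural cell markers summed to 564 and 489 CPM in high-Nppa cells, against 472 and 468 CPM in low-Nppa cells. The macrophage, endocardium and epicardium lists each summed to under 40 CPM in either group, with no count of Cd68, Vwf, Upk1b, Krt19 or Lrrn4 in high-Nppa cells. Their part in the differences was not tested. With cells holding a count of Tcf21, Pdgfra, C1qa, Ptprc, Upk3b or Wt1 left out, 51 genes rose and 16 fell.

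**Figure D4:**
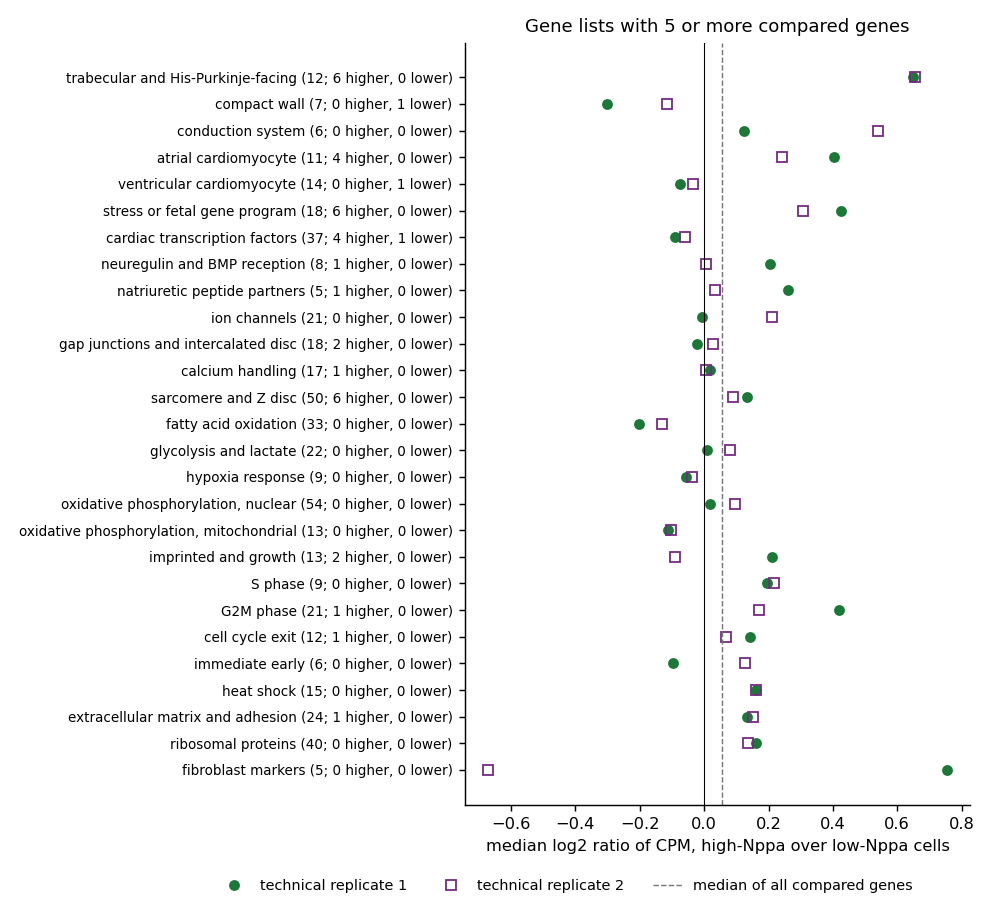
Median log2 ratio of CPM, high-Nppa over low-Nppa cells, for gene lists with 5 or more compared genes, in technical replicates 1 (filled circles) and 2 (open squares). The dashed line is the median of all compared genes, 0.05, and brackets give the number compared and called. The trabecular list lies right of that line in both technical replicates, and the 5 compared fibroblast markers lie on opposite sides of it.

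Metabolic and growth lists held small shifts and almost no called gene, beside 1.19% of all compared genes higher and 0.326% lower. Of 33 fatty acid oxidation genes none was called, 28 had ratios below 1 and the median log2 ratio was -0.19. Hadha, a subunit of the mitochondrial trifunctional protein, had 339 and 403 CPM in high-Nppa cells, against 472 and 472 CPM in low-Nppa cells. All 40 compared ribosomal protein genes had ratios above 1, with a median log2 ratio of 0.16, which turned to -0.01 when cells were ranked by Nppa without mitochondrial and haemoglobin counts. Of 13 mitochondrially encoded respiratory chain genes 11 had ratios below 1 (median log2 ratio -0.12), beside the lower mitochondrial share of high-Nppa cells, and the median was 0.03 under that ranking. All 9 compared S phase genes had ratios above 1 (median log2 ratio 0.19, none called), and 1 of 21 G2M genes rose, the ubiquitin-conjugating enzyme gene Ube2c (1.81-fold). Among cells under 40% mitochondrial counts the S phase median was -0.02 and the G2M median -0.36. Ube2c counts were also concentrated, with 76.4% and 80.7% of them in 10 high-Nppa cells.

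The remaining lists held few called genes. In the Notch list Hey2 was the 1 called gene of 4 compared, and in the natriuretic peptide list Nppb was the 1 of 5, while Corin, the protease that activates pro-ANP, had a ratio of 0.892 and Furin, a proprotein convertase, 1.10. Of 8 genes of neuregulin and BMP reception 1 rose (Id3, 1.70-fold), and of 18 genes of gap junctions and intercalated discs 2 rose (Gja5 and Fhl1). Gja1, the connexin 43 gene of working muscle, had 581 and 673 CPM in high-Nppa cells, against 657 and 630 CPM in low-Nppa cells. Of 13 imprinted and growth genes 2 rose, Meg3 and Mest (2.02-fold), and of 24 matrix and adhesion genes 1 rose, the proteoglycan gene Vcan (1.94-fold). Of 37 cardiac transcription factors 4 rose (Irx5, Etv1, Id3 and Irx3) and Hey2 fell, and of 12 cell cycle exit genes Cdkn1a rose. None of 22 glycolysis and lactate, 9 hypoxia, 54 nuclear respiratory chain, 6 immediate early or 15 heat shock genes was called. With 1.19% of all compared genes higher and 0.326% lower, lists of these sizes without a called gene do not stand apart.

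The high-Nppa cells were not uniform. Of 298 high-Nppa cells, 155 held an Nppb count and 143 did not, and some of the genes that rose against low-Nppa cells differed between them. This division and the 1 by Gja5, Irx3 or Irx5 were made after the values were seen, and the gene that defines a side is left out of its results. Ankrd1 had 1618 and 1298 CPM in high-Nppa cells with an Nppb count, against 277 and 211 CPM in those without (6.03-fold, 5.21 to 7.0). Xirp2 had 115 and 143 CPM in cells with, against 28.8 and 36.5 CPM in cells without (3.91-fold), and Tceal7 3.55-fold and Tpm2 2.53-fold higher levels. On the side without Nppb counts, Ankrd1 was below its 411 and 412 CPM in all low-Nppa cells, which include cells with an Nppb count. It was not below its level in low-Nppa cells without an Nppb count, given further on. Xirp2 was above its 15.6 and 15.2 CPM in all low-Nppa cells.

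Gja5 and Etv1 of the trabecular and His-Purkinje-facing list lay on the other side, as did Vcan and Mgp. Gja5 had 14.7 and 18.9 CPM in high-Nppa cells with an Nppb count, against 115 and 70.3 CPM in those without (ratio 0.174, 0.0996 to 0.290). Etv1 (0.191), Vcan (0.156) and Mgp (0.136) had the same order, with Mgp at 33.9 and 39.9 CPM in cells with and 248 and 292 CPM in cells without. Irx5 (0.643) and Irx3 (0.684) had pooled ratios below 1, yet technical replicate 2 had 50.4 CPM of Irx5 in cells with and 41.7 CPM in cells without. Slc6a6 (0.887) and Cdkn1a (0.990) had intervals that include 1. Cells with an Nppb count were deeper, with a median of 7351 and 6583 counts, against 5323 and 5763 in those without; the part of depth was not tested.

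Dividing the same cells by a count of Gja5, Irx3 or Irx5 gave 116 cells with and 182 without. Mgp had 223 and 275 CPM in cells with, against 22.3 and 41.9 CPM in cells without (7.94-fold), Vcan was 4.55-fold, Slc6a6 3.75-fold, Etv1 3.21-fold and Mest 2.98-fold higher. The haemoglobin gene Hba-a1 had a ratio of 0.437 and Sln 0.635. Myl4 had ratios of 1.2 in technical replicate 1 and 0.333 in technical replicate 2, and Xirp2 1.04 and 4.26, so the pooled values of 0.766 and 1.90 rest on technical replicate 2. An Nppb count was found in 61 of 116 cells with and 94 of 182 without (52.6% and 51.6%). Cells with a count had a median of 7517 and 7920 counts, against 4997 and 4895 in those without. Their median mitochondrial share was 33.1% and 32.7%, against 43.0% and 39.3% in those without. Low-Nppa cells had the same order, with 35.4% and 36.5% against 41.7% and 42.2%. The part of depth and mitochondrial share in this division was not tested.

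**Figure D5:**
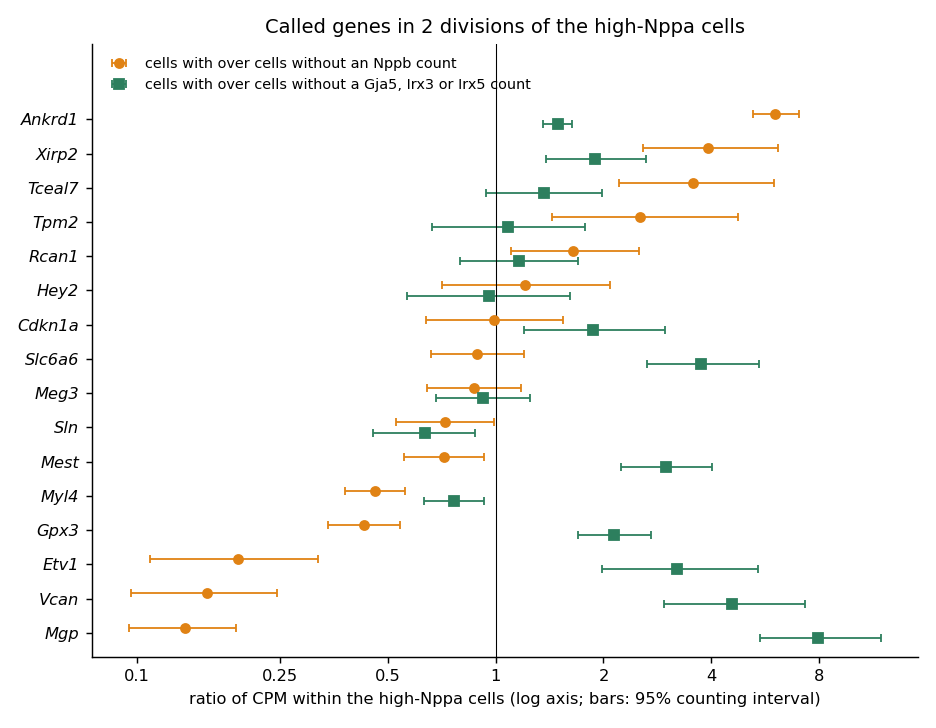
Ratio of CPM within the 298 high-Nppa cells, on a log axis, for 16 genes called between high-Nppa and low-Nppa cells. Circles compare cells with over cells without an Nppb count, squares cells with over cells without a Gja5, Irx3 or Irx5 count, and bars are exact 95% counting intervals; Ankrd1 and Xirp2 lie right of 1 and Mgp, Vcan and Etv1 left of 1 for Nppb, and all 5 pooled ratios lie right of 1 in the other division, that of Xirp2 through technical replicate 2 (4.26, against 1.04 in technical replicate 1).

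The same divisions were made in low-Nppa cells. With an Nppb count against without, Ankrd1 had 863 and 782 CPM against 232 and 196 CPM (3.80-fold), while Gja5 had a ratio of 0.306, Mgp 0.341 and Etv1 0.350. With a Gja5, Irx3 or Irx5 count against without, Slc6a6 was 4.89-fold, Etv1 4.44-fold, Vcan 4.36-fold and Mgp 3.97-fold higher. Myl4 was 1.56-fold higher (1.35 to 1.80) in these cells, the opposite order to its pooled ratio in high-Nppa cells, and Nppb had a ratio of 0.810. These divisions held 416 low-Nppa cells with an Nppb count and 314 with a Gja5, Irx3 or Irx5 count.

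Over all 2961 genes with at least 30 counts in the high-Nppa cells of each technical replicate, 44 were at least 1.5-fold higher in both technical replicates in cells with an Nppb count (1.49%) and 75 lower (2.53%). Ccn2, a secreted matricellular protein, led the first set with 146 and 137 CPM in cells with, against 17.7 and 13.0 CPM in cells without (9.13-fold, 5.19 to 17.5). Tnfrsf12a, the receptor for TWEAK, was 2.91-fold, Zyx, a focal adhesion protein, 2.42-fold and Jun, an AP-1 subunit, 2.13-fold higher. On the side without Nppb counts, Igfbp5 had 19.2 and 29.4 CPM in cells with, against 104 and 148 CPM in cells without (ratio 0.188), Mpped2 a ratio of 0.245, Ramp1, a receptor partner protein, 0.399, and Top2a, a topoisomerase of dividing cells, 0.263. These genes are the extremes of that scan and were chosen after their values were seen. Between high-Nppa and low-Nppa cells as wholes, neither Ccn2 (1.66-fold pooled) nor Tnfrsf12a (1.74-fold pooled) was called.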

How the data were processed

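Each of 2 technical replicates of 1 biological sample has a matrix of raw counts (genes by barcodes) as deposited by the authors. Cell Ranger 2.1.0 and mm10 appear in the submitters' processing notes. What a count stands for, a molecule or a read, is not given in the sources used here. Of 27999 features, 27645 had a symbol; positions came from GENCODE vM21. Cells were gated and ranked as the report states, with ties ordered by barcode. Doublets were not called; the gates on Pecam1, Cdh5, haemoglobin and Myl7 were the only screen. From the deposited counts, sums per group and technical replicate were scaled to CPM over all counts but those of Nppa. Intervals are exact at 95% (Poisson for levels, conditional binomial for ratios, Clopper-Pearson for shares). Fibroblast-like cells had at least 1% of counts from Col1a1, Col1a2, Col3a1 and Dcn, Myl2 and Myl7 under 0.3% of counts and no Pecam1 or Cdh5 count. Thinned shares use 2000 random counts per cell and leave out 6 high-Nppa and 9 low-Nppa cells that were shallower.

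Named genes are all measured members of the first 4 of 34 lists (trabecular, compact wall, conduction system, atrial), up to 4 called members of each other list, the 15 largest and 15 smallest ratios among called genes, and the markers; others were chosen after their values were seen. A few members of these lists are not reported here. Members and lists were chosen with earlier results of these data known. The comparison was checked on simulated counts, and 18 planned and 6 added alternatives were run. Sums and intervals were computed with scipy 1.17.1 under Python 3.11.15, with tables in pandas 2.3.3, arrays in numpy 2.4.6 and plots in matplotlib 3.10.9.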

Additional observations from a re-analysis of the deposited data

How the results depend on the processing

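Counts of genes that rose and fell, 55 and 15 as reported, were recomputed under 24 alternatives. They were 36 and 30 with mitochondrial and haemoglobin counts left out of the total, 51 and 29 as means over cells, 6 and 14 with cells thinned to 2000 counts, 24 and 29 with cells ranked without mitochondrial and haemoglobin counts, 87 and 45 for the top 5%, 30 and 2 for the top 20%, 27 and 9 against the cells between, and 50 and 6 with a Myl2 share over 95% and no Bmp10 count. They were 33 and 11 without cells holding a count of 9 cell cycle genes, 21 and 14 under 40% mitochondrial counts, 176 and 92 at 30 counts, 726 and 1110 at 1 count, and 10 and 1 at a ratio of 2. A single technical replicate gave 190 to 220 higher and 163 lower, since agreement was then not required. Of alternatives chosen after seeing the data, taking all cells with no Nppa count as the low end gave 34 and 10, leaving out cells with a count of Sln, Myl4 or Bmp10 19 and 4, and cells with no haemoglobin count 2 and 1 of 140 genes, from 16 and 7 high-Nppa cells. The cause of these shifts was not tested, but fewer genes were compared in the smaller sets of cells. All 55 kept ratios above 1 and all 15 below 1 under 18 of the 24; the exceptions at 50 counts or more were Tmem53 (0.823, thinned), Hbb-bt (0.940, Myl2 share), Pclaf (0.919, under 40% mitochondrial), Acta1 (0.689) and Mgll (0.861, both without Sln, Myl4 or Bmp10), and Myl4 (0.957) and Efnb3 (1.01), both with no haemoglobin count. A direction could not turn where only the count minimum or the required ratio changed, or where 1 technical replicate was left out. With a lower count minimum or 1 technical replicate, every called gene also stays called by construction. Nppb stayed called under all but the alternative without haemoglobin counts. Irx3 had ratios of 1.30 to 2.17 and was called under 11 of 23, and Hey2 0.382 to 0.751 under 17 of 23. Irx3 had enough counts to be compared in 16 of them and Hey2 in 22. No paired analysis was possible because the labels put both technical replicates in 1 group; the ratios between cells were taken within each technical replicate. Depth limits genes under 100 counts, which were not compared.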

Other observations

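Genes that lay apart from Nppb were counted together in a small set of cells. Cells were sorted by whether they held counts of at least 3 of 5 genes (Gja5, Etv1, Mgp, Vcan and Igfbp5), a set chosen after its values were seen, so the values are a description. Such cells made up 19 of 165 and 9 of 133 high-Nppa cells, 54 of 660 and 26 of 530 cells between, and 40 of 825 and 26 of 664 low-Nppa cells. Among high-Nppa cells, 3 of 19 and 2 of 9 of them held an Nppb count, against 58.2% and 52.4% of the other high-Nppa cells, which restates how the 5 genes were chosen, since they were among the lowest in cells with an Nppb count. Their median depth was 7347 and 9467 counts, against 6282 and 6051 in the other high-Nppa cells.

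These 28 high-Nppa cells held most counts of several genes of the trabecular and conduction lists. They had 32 of 39 and 14 of 18 counts of Slit2, 20 of 23 and 6 of 9 of Sema3a, 13 of 14 and 2 of 3 of Cacna2d2, and 37 of 50 and 17 of 28 of Id2. As levels, Slit2 had 212 and 178 CPM in them, against 7.15 and 5.12 CPM in the other high-Nppa cells. Not all list members followed: Kcne1 had 423 and 330 CPM, against 335 and 370 CPM, and Nppb 212 and 559 CPM, against 989 and 779 CPM. Irx2 had 72.7 and 114 CPM in them, against 23.5 and 14.1 CPM in the other high-Nppa cells, and Nkx2-5 251 and 305 CPM, against 118 and 177 CPM. Hey2 had 13.2 and 0 CPM in them, against 42.9 and 25.6 CPM. The fibroblast gene Col3a1 had 549 and 38.1 CPM in them, against 69.4 and 48.6 CPM, so it was higher in technical replicate 1 alone, while Slit2, Sema3a, Id2 and Irx2 were higher in both. The part of fibroblast RNA in technical replicate 1 was not tested. These levels cover high-Nppa cells alone, though cells between and low-Nppa cells also met the rule, so they are not read as particular to high-Nppa cells.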
